A study of Sus scrofa with 8 samples.

Results

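The genes described here are the 8 genes of the natriuretic peptide system that the study's expression table lists by name, of 18975 genes in all. They are the peptides NPPA, NPPB and NPPC, the receptors NPR1, NPR2 and NPR3, and the proteases CORIN and FURIN, and the rule takes them by name, although they were proposed with earlier results of these data known. RNA of heart was sequenced from 6-month-old male pigs of the Tibetan and Yorkshire breeds. Tibetan pigs raised in the highlands (TH) or the lowlands (TL) and Yorkshire pigs raised in the highlands (YH) or the lowlands (YL) make up the 4 groups, with no other treatment, and each group has 2 libraries. A library holds equal amounts of RNA of 4 pigs, which means that replicate error here is error between pools, and single animals cannot be seen. The comparisons ask how the breeds differ at 1 altitude (TH to YH, TL to YL) and how the altitudes differ within 1 breed (TH to TL, YH to YL).

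Natriuretic peptides are made as longer precursors. Those that are hormones of the heart are released when the heart wall is stretched. They lower blood pressure by relaxing vessels and by moving salt and water into the urine. NPPA encodes atrial natriuretic peptide (ANP), which healthy adult hearts make mainly in the atria, NPPB encodes B-type natriuretic peptide (BNP), and NPPC encodes C-type natriuretic peptide (CNP), which acts mostly in vessels and bone. Corin, a protease on the surface of heart muscle cells, cuts the ANP precursor, and furin, a protease of the secretory pathway, cuts the BNP and CNP precursors. ANP and BNP bind the receptor encoded by NPR1 and CNP binds that encoded by NPR2, both of which make cGMP, while NPR3 encodes a receptor that mainly takes the peptides out of circulation. In adult ventricles, NPPA and NPPB are widely used as markers of load, and NPPB has also been studied as a gene that low oxygen can induce.

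Levels are given in FPKM, the fragments of a gene divided by its transcript length in kilobases and by the mapped fragments in units of 1000000, so that levels of different genes can be set side by side. The 8 libraries hold 15686819 to 26722605 reads on genes. The heart muscle markers (8 of 9 were matched in the table) sum to between 14416 and 28200 FPKM in 7 libraries and to 9650 FPKM in YL2. The kidney markers (10 of 12 matched) sum to 4453 FPKM in YL2 and to 0.247 to 17.2 FPKM in the other libraries, so the values of NPPA, NPPB, NPR1, NPR3, CORIN and FURIN in comparisons with YL, where printed, and the DESeq2 calls there are also given without YL2. The sources used here do not say which chamber of the heart was sampled.

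NPPA (ENSSSCG00000003430) lies on chromosome 6 at chr6:65830301-65830859 of Sscrofa10.2, a gene model of 559 bases. Its level was 2263 FPKM in TH1 and 2146 FPKM in TH2, from 13215 and 11228 reads. It was 53.1 and 108 FPKM in TL1 and TL2, 23.1 and 93.1 FPKM in YH1 and YH2, and 23.3 and 46.3 FPKM in YL1 and YL2. The TH libraries thus stood far above all others and close to each other, whereas within the other groups the libraries of YH differed most. The mean of TH was 2205 ± 82.8 FPKM (SD, n = 2), against 80.5 ± 38.8 FPKM in TL (SD, n = 2), 58.1 ± 49.5 FPKM in YH (SD, n = 2) and 34.8 ± 16.3 FPKM in YL (SD, n = 2). In this order of the groups, TL and YH overlapped, as did YH and YL, while TL lay above YL in each library. NPPA ranked 60th and 44th by FPKM among genes with at least 10 reads in the TH libraries, and between 542nd and 2046th in the other 6.

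For NPPA the mean was 38-fold higher in TH than in YH. On the log2(FPKM + 1) scale its log2 fold change was 5.53 ± 0.68 (SE), with a limma adjusted p of 0.0448 over the 11913 genes tested. Calls need a log2 fold change over 1 in size with an adjusted p under 0.01. By this rule NPPA was not called in TH to YH, but it passed at an adjusted p under 0.05. The study used the same cutoffs and adjusted its p-values, but does not state that its 0.01 applies to the adjusted p. In TH to TL the mean was 27.4-fold higher, with a log2 fold change of 4.84 ± 0.68 (SE) and a limma adjusted p of 0.0914. Both comparisons share the TH libraries. With DESeq2 on reads recovered from the deposited signal, the adjusted p of NPPA was 1.33e-14 in TH to YH and 1.59e-11 in TH to TL, with edgeR it was 0.0672 and 0.121, and over the alternatives that leave out no single library it ranged up to 0.104 and 0.188, or to 0.248 and 0.592 with a library left out.

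NPPB (ENSSSCG00000003431) lies beside NPPA, 9200 bases further on, at chr6:65840060-65841530. Its level was 4963 and 3264 FPKM in TH1 and TH2, from 50842 and 35188 reads. It was 7.75 and 51.7 FPKM in TL, 16.1 and 180 FPKM in YH, and 278 and 64.3 FPKM in YL. Again both TH libraries were the highest, at 32nd of all genes with at least 10 reads in each, and the other 6 libraries spread widely. The reads of NPPB made up 0.19% and 0.224% of all reads on genes in TH1 and TH2 and at most 0.0157% elsewhere. Below TH, YL overlapped YH and YH overlapped TL, and TL lay below YL in each library.

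The mean of NPPB was 4114 ± 1202 FPKM in TH (SD, n = 2), 42-fold that of YH and 138-fold that of TL. In TH to YH its log2 fold change was 6.18 ± 1.31 (SE) and in TH to TL 7.55 ± 1.31 (SE), with limma adjusted p of 0.122 and 0.173. With a library left out, the log2 fold change of NPPB ranged from 4.48 (without YH1) to 7.88 (without YH2) in TH to YH and from 6.26 (without TL1) to 8.85 (without TL2) in TH to TL, so its fold rests on which TL or YH library is counted. That of NPPA ranged from 4.55 to 6.52 and from 4.34 to 5.35 with the same libraries left out. With DESeq2 the adjusted p was 0.0072 and 4.23e-05, with edgeR 0.192 and 0.207, and over the alternatives it ranged from 1.88e-09 to 0.2 and from 2.13e-17 to 0.289, or up to 0.558 and 0.883 with a library left out. With 2 libraries against 2, an exact permutation test of a single gene cannot go below a two-sided p of 0.333.

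**Figure D1:**
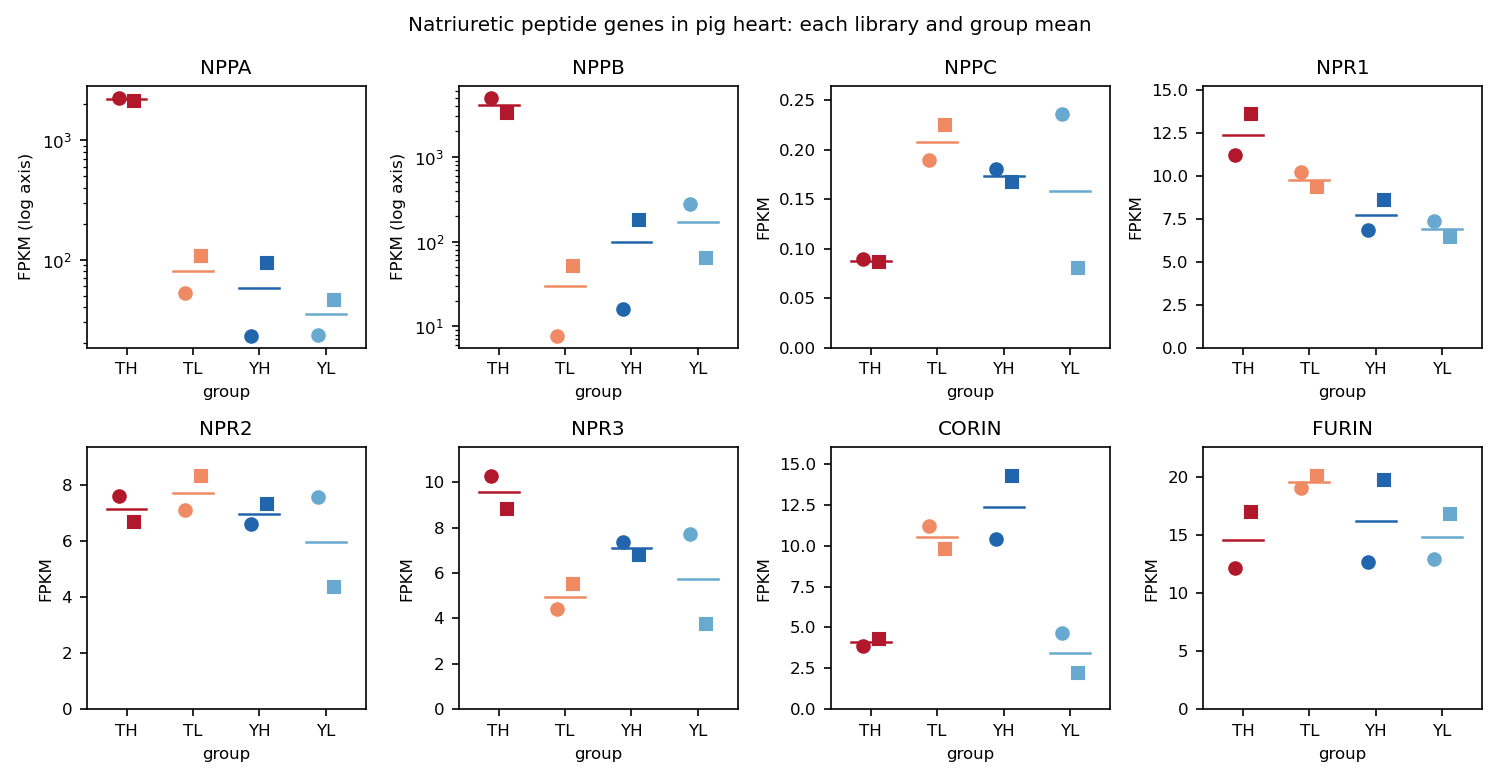
FPKM of each natriuretic gene (y axis, log axis for NPPA and NPPB) by group (x axis), where circles are the first and squares the second library of a group and lines are group means. NPPA and NPPB are at 2146 FPKM or more in both TH libraries and at most 278 FPKM in the other 6, CORIN is low in TH and YL, and NPPC stays under 0.24 FPKM.

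The balance of both peptides was not the same in every library. NPPB was 2.19 and 1.52 times NPPA in TH1 and TH2 by FPKM. It was 0.146 and 0.479 times NPPA in TL, 0.7 and 1.93 times in YH, and 11.9 and 1.39 times in YL. TL was the group in which NPPA exceeded NPPB in both libraries, and YL1 stood out with the highest ratio. The gene model of NPPA is short, so that its FPKM, these ratios and its ranks depend on the effective length used to compute FPKM. In reads, which are not divided by length, NPPB was 3.85 and 3.13 times NPPA in TH, 0.275 and 0.935 times in TL, 1.35 and 4.82 times in YH, and 21.7 and 2.49 times in YL.

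Between the other groups the peptide genes differed less. NPPA was higher in TL than in YL, with a log2 fold change of 1.18 ± 0.68 (SE; limma adjusted p = 0.682), which ranged from 0.67 (without TL2) to 1.68 (without TL1) with a library left out and was 1.66 without YL2. NPPB was lower in TL than in YL, by a log2 fold change of -2.65 ± 1.31 (SE; limma adjusted p = 0.626), which ranged from -3.95 (without TL2) to -1.36 (without TL1) and was -3.70 without YL2. From YH to YL the log2 fold change was 0.49 for NPPA and -1.28 for NPPB, both within overlapping libraries, and 0.97 and -2.32 without YL2, and either sign occurred with a library left out (-0.50 to 1.47 and -2.98 to 0.42). None of these passed the test.

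The difference of the altitude effects, TH to TL minus YH to YL, was 4.36 ± 0.97 (SE) for NPPA and 8.83 ± 1.86 for NPPB on the log2 scale. The limma adjusted p was 0.289 and 0.273, and 0.269 and 0.206 without YL2. With DESeq2 both passed, at an adjusted p of 0.000267 and 0.00746 (0.000764 and 0.00888 without YL2), while over the other alternatives the adjusted p ranged up to 0.375 for each, or to 0.843 and 0.823 with a library left out.

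NPPC (ENSSSCG00000026852), at chr15:146347595-146350879, was near the limit of detection. It had 0.0894 and 0.0864 FPKM in TH, 0.19 and 0.225 FPKM in TL, 0.18 and 0.167 FPKM in YH, and 0.236 and 0.0809 FPKM in YL. These values rest on 2 to 7 reads per library, too few to tell the groups apart, and NPPC was left out of the test because it did not reach 1 FPKM in 2 libraries. The other 7 genes were tested.

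Of 12 atrial markers 9 were matched, and TH had the highest sum of these, most of which is MYL7. The sum was 3427 to 4532 FPKM in TH, 1553 to 2578 FPKM in TL, 732 to 1128 FPKM in YH and 428 to 2762 FPKM in YL. The atrial myosin light chain MYL7 had 4283 and 3207 FPKM in TH, 1415 and 2396 FPKM in TL, 576 and 932 FPKM in YH, and 2578 and 337 FPKM in YL. MYL7 was thus highest in TH, with YL1 between TH and TL. Sarcolipin (SLN), an inhibitor of the calcium pump that is abundant in atria, had 56.5 and 16.3 FPKM in TH and 0.812 to 3.52 FPKM elsewhere. Some other atrial markers overlapped another group or lay below it. The embryonic and atrial light chain MYL4 had 7.59 and 6.73 FPKM in TH, 8.85 and 21.4 FPKM in TL and 2.09 to 4.6 FPKM in YH and YL. The potassium channel gene KCNJ3 had 14.7 and 9.88 FPKM in TH and 5.71 to 17.8 FPKM elsewhere, PAM, an enzyme of atrial granules, had 159 and 171 FPKM in TH and 51.9 to 169 FPKM elsewhere, and MYBPHL was at 0 FPKM in TH and TL. Of the 8 tested, 5 were higher and 0 lower in TH than in YH without overlap (25.2% and 27.3% of all genes), and 3 were higher and 2 lower in TH than in TL (24% and 24.5%). The myosin heavy chain MYH6, which large mammals make mainly in atria and which is on the heart muscle list, went the other way, with 20.6 and 18.4 FPKM in TH, 75.1 and 161 FPKM in TL, 246 and 135 FPKM in YH, and 88.4 and 2.6 FPKM in YL. Its log2 fold change was -3.16 in TH to YH and -2.44 in TH to TL (limma adjusted p = 0.307 and 0.536), and limma called it in TH to YH with libraries scaled to the same FPKM sum. None of the 8 atrial markers tested was called by limma or edgeR, and 2 had an unadjusted limma p under 0.05 in TH to YH (16.2% of all genes) and 1 in TH to TL (11.3%). SLN had limma adjusted p of 0.0761 in TH to YH and 0.0878 in TH to TL, and DESeq2 called it in both (1.93% and 1.27% of all genes).

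Set against MYL7, NPPA was 528 and 669 FPKM per 1000 FPKM of MYL7 in TH1 and TH2, and 9.04 to 138 in the other libraries. NPPB was 1159 and 1018 FPKM per 1000 FPKM of MYL7 in TH, and 5.47 to 193 elsewhere. Against SLN the order was another one. Per FPKM of SLN, NPPA was 40.1 and 132 FPKM in TH, 65.4 and 64 FPKM in TL, and 8.49 to 40 FPKM in YH and YL. NPPB was 87.9 and 200 FPKM per FPKM of SLN in TH, 101 FPKM in YL1 and 7.63 to 77.3 FPKM in the other libraries. Both peptide genes thus stood apart in TH per FPKM of MYL7 but overlapped other groups per FPKM of SLN, a gene of few FPKM outside TH. The ventricular markers (4 of 6 matched) summed to 5373 to 7482 FPKM in TH, 7986 to 9324 FPKM in TL, 6591 to 7315 FPKM in YH and 3300 to 8002 FPKM in YL. The smooth muscle markers (4 of 4 matched) summed to 304 to 327 FPKM in TH and 81.7 to 200 FPKM elsewhere, and the blood markers (4 of 4 matched) to 1627 to 3090 FPKM in TH and 526 to 1403 FPKM elsewhere. The fibroblast markers overlapped other groups, with 141 to 403 FPKM in TH and 165 to 498 FPKM elsewhere. So did the endothelium and endocardium markers (121 to 146 FPKM in TH, 68 to 135 FPKM elsewhere). The conduction system markers also overlapped (26 to 39.8 FPKM in TH, 13.2 to 36.1 FPKM elsewhere). In the smooth muscle and in the blood list 1 gene each was lower in TH than in TL and YH without overlap. MYH11, the smooth muscle myosin, had 0.388 and 2.69 FPKM in TH, 4.87 and 3.62 FPKM in TL and 2.85 and 3.54 FPKM in YH. PTPRC, a gene of white blood cells, had 1.29 and 1.41 FPKM in TH, 2.14 and 2.98 FPKM in TL and 6.1 and 6.19 FPKM in YH (limma adjusted p = 0.0601 in TH to YH, where DESeq2 called it), while the globins HBB and HBA carry the blood sum. The part of atrial, smooth muscle or blood RNA in the difference of NPPA and NPPB was not tested, and in bulk tissue fewer cells of a type and less RNA per cell cannot be told apart.

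**Figure D2:**
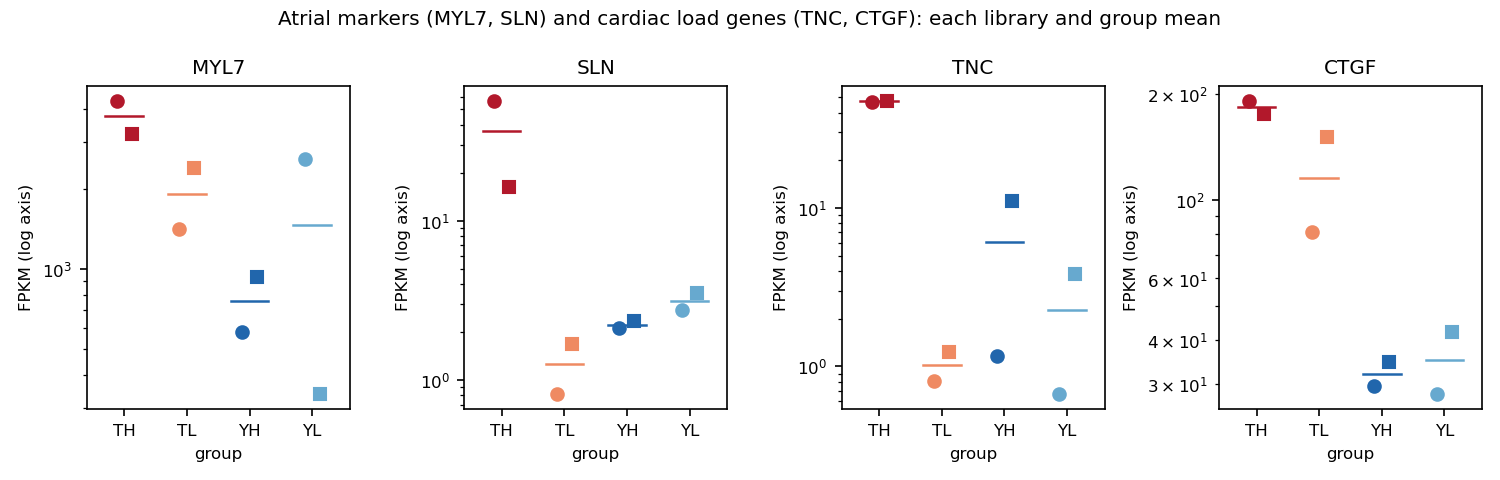
FPKM (y axis, log axis) of the atrial markers MYL7 and SLN and of TNC and CTGF, genes of the loaded heart, by group (x axis), with circles for the first and squares for the second library and lines for group means. All 4 genes are highest in the TH libraries, MYL7 also reaches 2578 FPKM in YL1, and TNC is at 46.5 and 47.5 FPKM in TH. Other genes of the same lists are not: MYL4 and KCNJ3 are lower in TH than in TL, XIRP1 is lower in TH than in YH, and ANKRD1 overlaps YH.

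The high level of NPPA and NPPB did not extend to the genes around them. Within 200 kb of NPPA the table lists 13 other genes, of which 10 were tested. The largest log2 fold change among these in TH to YH or TH to TL had a size of 0.83, for the mitochondrial fusion gene MFN2, which was lower in TH (36.2 and 42.1 FPKM) than in YH (78.9 and 62.3 FPKM) and TL (68.3 and 72 FPKM). CLCN6, a chloride transporter gene next to NPPA, had a log2 fold change of 0.31 in TH to YH and -0.01 in TH to TL. KIAA2013, the tested gene next to NPPB, had 0.03 and -0.05. None of the 10 was called, and the window was chosen with the values known.

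**Figure D3:**
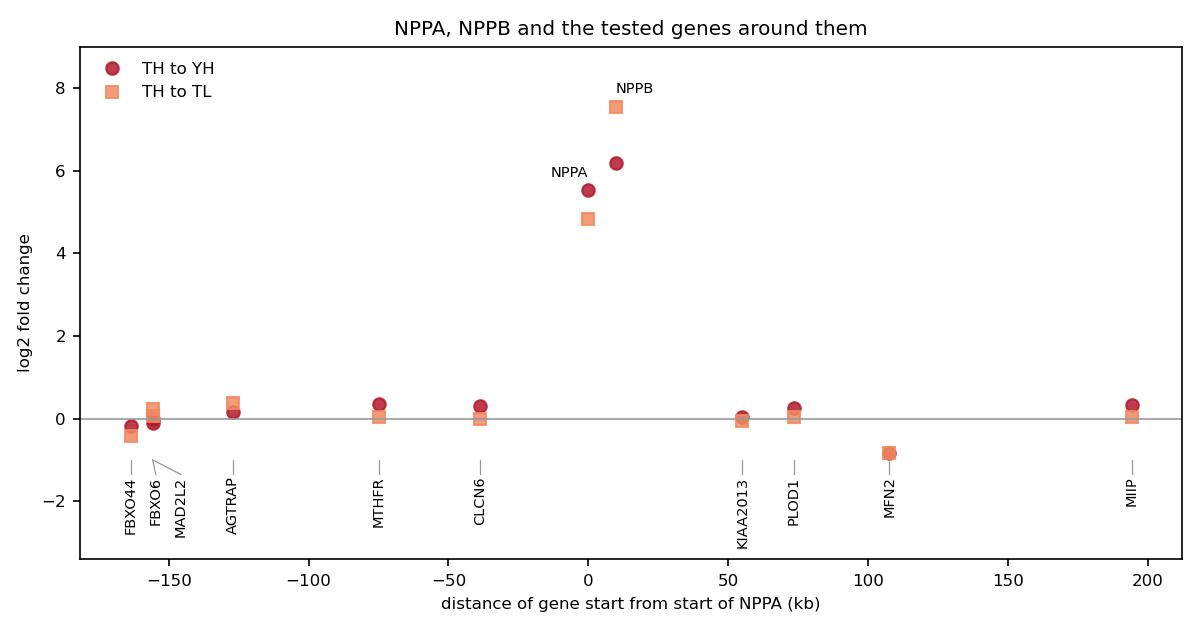
Log2 fold change (y axis, log2(FPKM + 1) scale) of NPPA, NPPB and the 10 other tested genes against the distance of each gene start from that of NPPA in kb (x axis), for TH to YH (circles) and TH to TL (squares). The peptide genes lie between 4.84 and 7.55, and the neighbours lie within 0.83 of 0.

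The receptor genes were expressed at much lower levels, between 3.74 and 13.6 FPKM. NPR1 (ENSSSCG00000006572, chr4:104855491-104870669), the receptor of ANP and BNP, had 11.2 and 13.6 FPKM in TH, 10.2 and 9.34 FPKM in TL, 6.87 and 8.61 FPKM in YH, and 7.35 and 6.42 FPKM in YL. Each Tibetan library was above each Yorkshire library, TH was above TL, and YH overlapped YL. From TH to YH the log2 fold change was 0.62 ± 0.21 (SE; limma adjusted p = 0.245), and from TL to YL 0.45 ± 0.21 (SE; limma adjusted p = 0.619), or 0.37 without YL2. Neither passed the test. When each library was scaled to the same FPKM sum, the TH to YH value of NPR1 became -0.18, which is 0.33 above the median of all genes under that scaling, -0.50 (it was -0.03 without it).

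NPR3 (ENSSSCG00000025475), the clearance receptor, lies on the unplaced scaffold GL893974.1 at 17329 to 19334. It had 10.3 and 8.83 FPKM in TH, 4.4 and 5.53 FPKM in TL, 7.39 and 6.78 FPKM in YH, and 7.72 and 3.74 FPKM in YL, from 65 to 153 reads per library. TH was the highest group in each library, followed by YH, while YL overlapped both YH and TL. NPR3 had a log2 fold change of 0.83 ± 0.31 (SE) in TH to TL, with an unadjusted p of 0.0331 and an adjusted p of 0.385 in limma. It was 0.39 in TH to YH, and -0.36 when libraries were scaled to the same FPKM sum, which is 0.15 above the median of all genes under that scaling. From TL to YL it was -0.12, or -0.55 without YL2.

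NPR2 (ENSSSCG00000005322, chr1:264233931-264254250), the CNP receptor, was the receptor gene with the least difference between groups. It had 7.61 and 6.68 FPKM in TH, 7.11 and 8.33 FPKM in TL, 6.61 and 7.33 FPKM in YH, and 7.56 and 4.35 FPKM in YL. All groups overlapped, and YL2 had the lowest level. NPR2 had a log2 fold change of 0.03 in TH to YH, where its sign turned under other scalings, and -0.10 in TH to TL, with limma adjusted p of 0.966 and 0.927.

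The ratio of NPR1, which signals, to NPR3, which clears, was 1.08 and 1.54 in TH and 2.33 and 1.69 in TL by FPKM. In YH it was 0.929 and 1.27, and in YL 0.952 and 1.72. TL had both of its libraries above those of TH and YH. The receptor genes thus varied by at most 2.76-fold over the 8 libraries, against 98.2-fold for NPPA and 641-fold for NPPB.

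CORIN (ENSSSCG00000008813, chr8:39505993-39782313), which encodes the protease that activates ANP, had a pattern that differed from that of NPPA and NPPB. Its level was 3.84 and 4.32 FPKM in TH, 11.2 and 9.83 FPKM in TL, 10.4 and 14.3 FPKM in YH, and 4.63 and 2.21 FPKM in YL, from 298 to 1474 reads. TH and YL were low and overlapped, TL and YH were high and overlapped, and each low library was below each high library. CORIN was therefore lower in the highland than in the lowland libraries in Tibetan pigs, and the other way round in Yorkshire pigs. The highest NPPA levels and low CORIN levels were found in the same TH libraries, where NPPA was 589 and 496 times CORIN by FPKM, against 2.22 to 20.9 times in the other libraries.

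The log2 fold change of CORIN was -1.38 ± 0.31 (SE) in TH to YH and -1.18 ± 0.31 in TH to TL, with limma adjusted p of 0.134 and 0.263. It was 1.43 ± 0.31 (SE) in TL to YL and 1.64 ± 0.31 in YH to YL, with limma adjusted p of 0.261 and 0.582. Without YL2 these were 1.03 and 1.23, with adjusted p of 0.29 and 0.44. Each of the 4 unadjusted limma p-values was under 0.05, from 0.00123 to 0.00703. With DESeq2 the adjusted p of CORIN was 0.0112 in TH to YH, 0.0466 in TH to TL, 0.0106 in TL to YL and 0.00936 in YH to YL (0.0515 and 0.0351 without YL2), and with edgeR it ranged from 0.152 to 0.531.

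CORIN was lower in TH than in TL and higher in YH than in YL, and also lower in TH than in YH and higher in TL than in YL, each time without overlap, a pattern of opposite directions in both respects that 5.78% of all genes tested share. In at least 1 of these respects it was shared by 15.5% of all genes and by 2 of the 7 natriuretic genes, NPPB and CORIN. For CORIN, the difference of these differences was -2.81 ± 0.44 (SE) on the log2 scale. The limma p was 0.000396 and the adjusted p 0.198. Without YL2 the value was -2.41, with an adjusted p of 0.119. Without YL1, which leaves YL2 as the only YL library, it was -3.22 and passed the test at an adjusted p of 0.0066, and DESeq2 gave 8.01e-05 (1.46e-06 without YL2), while over the other alternatives the adjusted p ranged up to 0.64, or to 0.724 with a library left out. Per 10000 FPKM of heart muscle markers, CORIN was 1.36 and 3 FPKM in TH, 5.31 and 4.31 FPKM in TL, 6.13 and 8.59 FPKM in YH, and 2.06 and 2.29 FPKM in YL, so that TH and YL were again below TL and YH.

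FURIN (ENSSSCG00000001817, chr7:58495233-58502440) was the most abundant of the receptor and protease genes by mean FPKM. It had 12.1 and 17 FPKM in TH, 19 and 20.1 FPKM in TL, 12.7 and 19.7 FPKM in YH, and 12.9 and 16.8 FPKM in YL. TL was above TH and YL, and YH overlapped every other group. FURIN had a log2 fold change of -0.42 ± 0.29 (SE) in TH to TL and 0.38 ± 0.29 in TL to YL, with limma adjusted p of 0.632 and 0.746, and the latter was 0.56 without YL2. By FPKM, FURIN was 3.15 and 3.94 times CORIN in TH, 1.7 and 2.05 times in TL, 1.22 and 1.38 times in YH, and 2.79 and 7.6 times in YL.

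**Figure D4:**
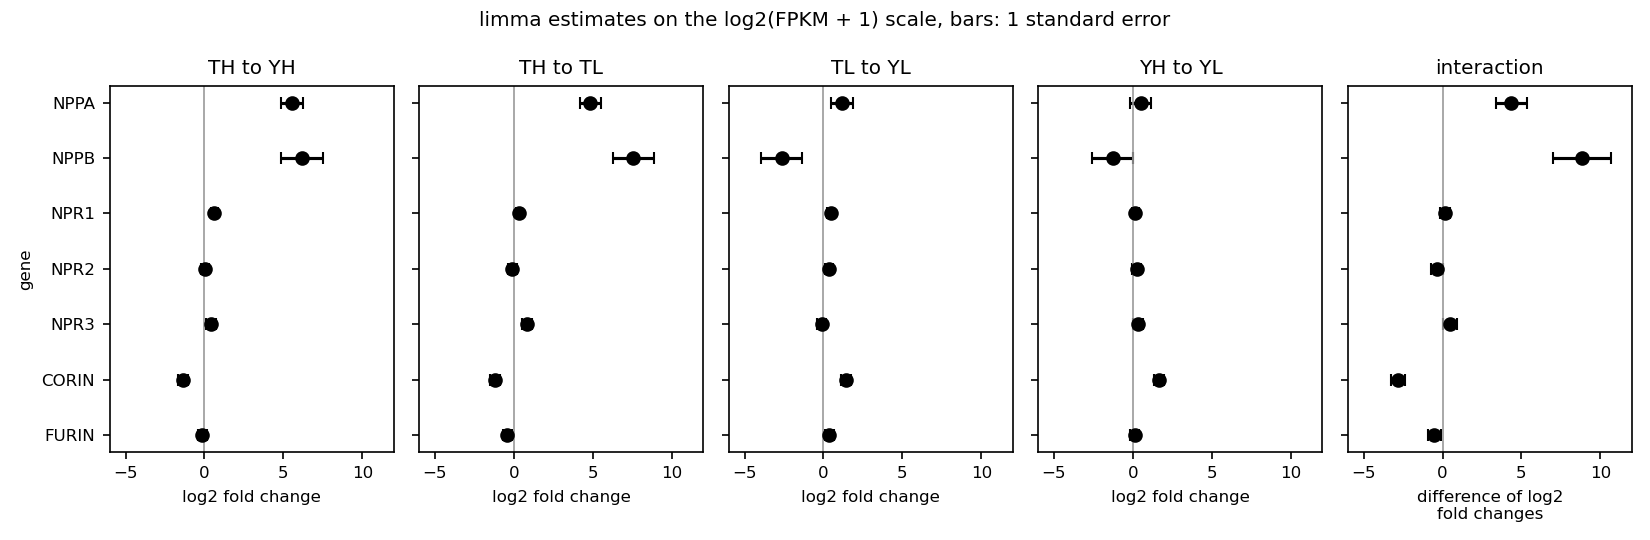
Log2 fold change (x axis, log2(FPKM + 1) scale) of the 7 tested natriuretic genes (y axis) in each comparison and, at the right, the difference of the altitude effects of both breeds, with bars of 1 standard error from limma. The peptide genes lie at 4.84 to 7.55 in the comparisons of TH, and CORIN is below 0 in both of these and above 0 in TL to YL and YH to YL.

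In the main limma fit, with all 8 libraries and no further scaling, none of the 7 tested genes was called in any comparison. Over all genes tested, 0.0336% were called in TH to YH, 0.0504% in TH to TL, 0.00839% in TL to YL, 0% in YH to YL and 0.0336% in the difference of the altitude effects. At an unadjusted p under 0.05, limma gave 4 of 7 in TH to YH (NPPA, NPPB, NPR1 and CORIN), against 16.2% of all genes, and 4 of 7 in TH to TL (NPPA, NPPB, NPR3 and CORIN), against 11.3%. It gave 1 in TL to YL and 1 in YH to YL, each time CORIN, against 8.94% and 5.97%, and 3 in the difference of the altitude effects (NPPA, NPPB and CORIN), against 10.9%. Only NPPA passed at an adjusted p under 0.05, in TH to YH, where 0.26% of all genes did (0.101% in TH to TL, 0.00839% in TL to YL, 0% in YH to YL and 0.042% in the difference of the altitude effects). With libraries scaled to the same FPKM sum, limma called NPPA and NPPB in TH to YH (38 genes in all) and in TH to TL (30 genes). With that scaling it also called NPPB in the difference of the altitude effects. DESeq2 called NPPA and NPPB in TH to YH (1.93% of all genes) and in TH to TL (1.27%), none in TL to YL (1.47%), CORIN in YH to YL (0.302%; not without YL2), and all 3 in the difference of the altitude effects (0.63%), while edgeR called none of the 7 and no other gene (0%). At an unadjusted p under 0.05, edgeR gave 3 of 7 in TH to YH (14.9% of all genes), 3 in TH to TL (10.5%), 1 in TL to YL (11.2%), 1 in YH to YL (8.87%) and 3 in the difference of the altitude effects (11.3%).

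Libraries that did not overlap between groups were common in all genes. Between TH and YH they were separated for 5 of 7 natriuretic genes, against 52.5% of all genes tested, with 4 higher in TH (25.2%) and 1 lower (27.3%). Between TH and TL this held for 6 of 7, against 48.5%, with 4 higher in TH (24%) and 2 lower (24.5%). Between TL and YL it held for 5 of 7, against 41.5%, with 4 higher in TL (23.8%) and 1 lower (17.8%). Between YH and YL it held for 1 of 7, against 36.3%, namely CORIN, which was higher in YH (21.9%), and 0 were lower (14.4%).

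The genes that act before and after the peptides were taken from a list of 15, of which 14 were matched and 9 passed the filter. Their median log2 fold change was -0.94 in TH to YH and -0.62 in TH to TL, where the medians of all genes tested were -0.03 and -0.02. In TL to YL and YH to YL it was 0.48 and 0.34, against 0.02 and 0.03, and without YL2 it was 0.02 and 0.25. With a library left out it ranged from -1.33 (without TH2) to -0.55 (without TH1) in TH to YH, from -0.78 to -0.31 (likewise) in TH to TL, from 0.02 to 0.95 (without YL1) in TL to YL and from -0.04 (without YH1) to 0.37 in YH to YL. This median also depended on the filter. In TH to YH it was -0.13 with no filter on low values and -1.82 with a mean of at least 10 FPKM, which leaves DPP4 and MME. In TH to TL these values were -0.23 and -1.15. With the mean of at least 10 FPKM the median was -2.13 in TL to YL and -1.46 in YH to YL. MME reaches that mean only through YL2, at 160 FPKM against 0.447 to 5.1 FPKM elsewhere. Without YL2 the log2 fold change of MME was -0.14 in TL to YL and -0.06 in YH to YL. With all libraries and the filter as above, none was called by limma or edgeR at an adjusted p under 0.01, while limma called 1, MME, in TL to YL with libraries scaled to the same FPKM sum, and in TL to YL and YH to YL without YL1, which leaves YL2. At an unadjusted limma p under 0.05, 4 of 9 were lower in TH than in YH (16.2% of all genes passed in either direction) and 2 lower in TH than in TL (11.3%), and in TL to YL 4 were higher and 1 lower (8.94%). DESeq2 called 1 of 9 in TH to YH, DPP4 (1.93% of all genes), and 2 in TL to YL, DPP4 and PDE2A (1.47%). Without YL2 the DESeq2 log2 fold change in TL to YL was -1.59 for DPP4 and 3.75 for PDE2A. PDE2A was then not called. It passed the filter only through TL, at 1.37 and 1.34 FPKM against 0.0642 to 0.86 FPKM elsewhere, so its call is not independent of the filter. In TH to YH, 1 of 9 passed in limma at an adjusted p under 0.05 (0.26% of all genes).

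The gene that passed was DPP4, a peptidase that trims BNP among many other peptides. It had 11.3 and 9.01 FPKM in TH, 16.5 and 20.3 FPKM in TL, 41.9 and 48.9 FPKM in YH, and 52.3 and 68.4 FPKM in YL. Each Tibetan library was below each Yorkshire library, and within each breed the highland libraries were below the lowland ones. The log2 fold change of DPP4 was -2.06 ± 0.24 (SE; limma adjusted p = 0.0411) in TH to YH and -1.66 ± 0.24 (SE; limma adjusted p = 0.156) in TL to YL, or -1.47 without YL2.

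Neprilysin (MME), which degrades natriuretic peptides, had 0.447 and 1.04 FPKM in TH and 3.31 to 5.1 FPKM in TL, YH and YL1, but 160 FPKM in YL2, the library with kidney genes. PDE3B, which breaks down cyclic nucleotides, had 10.3 and 10.1 FPKM in TH, within the 6.7 to 14.2 FPKM of the other libraries. RGS2, a brake on receptor signalling that cGMP kinase activates, had 9.64 to 13.4 FPKM in TH and TL and 5.43 to 11.4 FPKM in YH and YL. The cGMP kinase genes PRKG1 and PRKG2, PDE5A and PDE9A were mostly below 1 FPKM and did not pass the filter, and neither did OSTN, the gene of a further ligand of NPR3.

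Of the same list, 2 genes followed the order of CORIN and were singled out after their values were seen. PCSK6, a protease that activates corin, had 1.79 and 5.96 FPKM in TH, 12.4 and 11.5 FPKM in TL, 10.6 and 9.39 FPKM in YH, and 6.12 and 4.48 FPKM in YL. MRVI1, which encodes a target of cGMP kinase, had 2.34 and 4.73 FPKM in TH, 5.44 and 6.88 FPKM in TL, 7.35 and 7.41 FPKM in YH, and 2.84 and 1.88 FPKM in YL. For both, TH was below TL and YH was above YL in each library. The log2 fold change of PCSK6 was -1.32 in TH to YH (limma adjusted p = 0.219) and -1.55 in TH to TL (limma adjusted p = 0.268), so that neither passed.

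**Figure D5:**
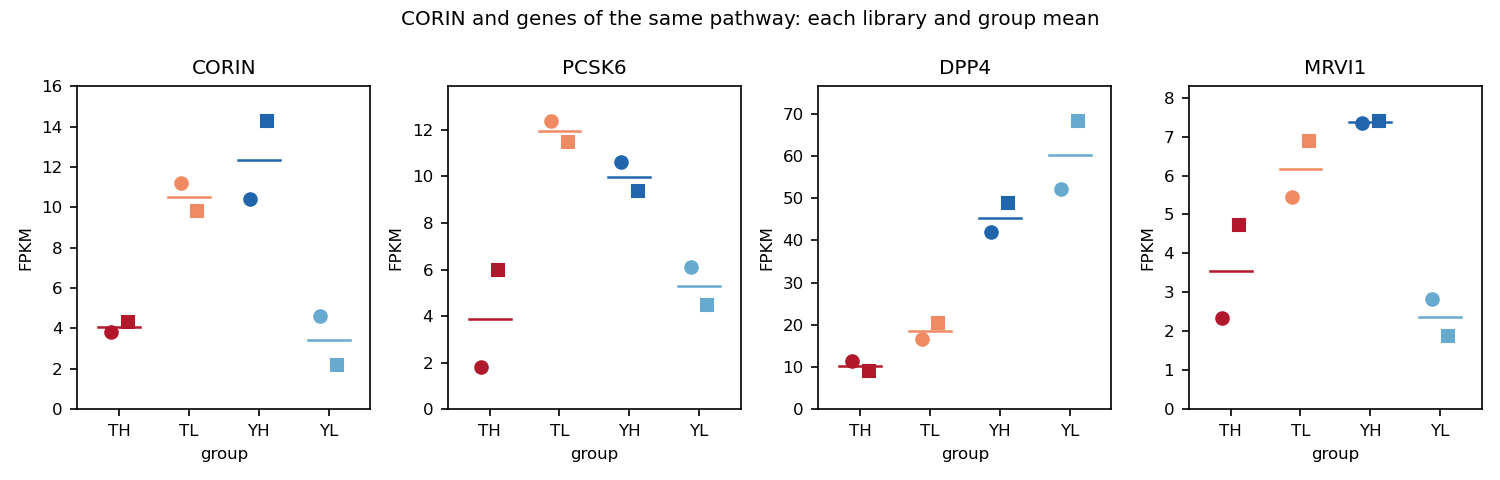
FPKM (y axis, from 0) of CORIN, PCSK6, DPP4 and MRVI1 by group (x axis), with circles for the first and squares for the second library and lines for group means. CORIN, PCSK6 and MRVI1 are lower in TH than in TL and higher in YH than in YL, while DPP4 is at 9.01 to 20.3 FPKM in the Tibetan and 41.9 to 68.4 FPKM in the Yorkshire libraries.

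Transcription factors known to act on the NPPA and NPPB genes were taken from a further list. Of 14 such genes 13 were matched and tested, and none was called by limma or edgeR. At an unadjusted limma p under 0.05, 1 of 13 was higher in TH than in YH (16.2% of all genes passed in either direction), 3 were lower in TH than in TL (11.3%), 5 were higher in TL than in YL (8.94%) and 3 were higher in YH than in YL (5.97%). Of these 13 genes, DESeq2 called SRF in TL to YL (1.47% of all genes), but not without YL2 (log2 fold change 0.93). Their median log2 fold change was 0.10 in TH to YH (-0.63 with libraries scaled to the same FPKM sum, where the median of all genes was -0.50), -0.24 in TH to TL (-0.55 and -0.27 likewise), 0.59 in TL to YL and 0.24 in YH to YL, the last 2 being 0.07 and -0.07 without YL2 and 1.21 and 0.95 without YL1. With a library left out it ranged from -0.04 (without YH2) to 0.30 (without TH2) in TH to YH and from -0.24 to -0.03 (without TH1) in TH to TL. The most abundant was HAND2, with 160 and 92.3 FPKM in TH and 42.4 to 144 FPKM elsewhere. NKX2-5, a factor of heart muscle identity, had 155 and 91.7 FPKM in TH, 94.2 and 77 FPKM in TL, 69.5 and 63.3 FPKM in YH, and 92.7 and 33.8 FPKM in YL. GATA6 ranged from 23.4 to 82.9 FPKM with overlapping groups. SRF, a factor of muscle and growth genes, had 45.5 and 48.9 FPKM in TL and 18.1 to 30.5 FPKM elsewhere.

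Other genes known from loaded hearts were higher in TH by their median, with 0 of 10 tested called by limma or edgeR. In TH to TL, limma called 1, TNC, with only the 4 libraries compared and with libraries scaled to the same FPKM sum. Of 13 such genes 10 were matched, with a median log2 fold change of 1.19 in TH to YH (0.24 with libraries scaled to the same FPKM sum, where the median of all genes was -0.50) and 1.23 in TH to TL (0.57, where it was -0.27), against -0.09 in TL to YL and 0.73 in YH to YL (-0.66 and 0.14 without YL2). With a library left out it ranged from 0.64 (without YH1) to 1.63 (without YH2) in TH to YH, from 0.80 (without TL1) to 1.70 (without TL2) in TH to TL, from -0.66 to 0.86 (without YL1) in TL to YL and from -0.08 (without YH2) to 1.55 (without YL1) in YH to YL. The FPKM of all genes sum to 8559104 in TH1 and to 1563940 to 4017846 in the other libraries, and the part of this in the levels of TH1 was not tested. At an unadjusted limma p under 0.05, 3 of 10 were higher in TH than in YH (16.2% of all genes passed in either direction) and 4 higher in TH than in TL (11.3%), with none lower. XIRP1, an actin-binding protein gene, had 122 and 93.3 FPKM in TH, below the 144 and 211 FPKM of YH (limma adjusted p = 0.639). DESeq2 called CTGF in TH to YH (1.93% of all genes) and in TL to YL (1.47%). In TL to YL the DESeq2 log2 fold change of CTGF was 1.70, or 1.99 without YL2. In TH to TL, DESeq2 called CSRP3, CRYAB and TNC (1.27% of all genes). Skeletal actin (ACTA1) had 30005 and 21387 FPKM in TH and 5833 to 15576 FPKM elsewhere. CSRP3, a protein of the Z-disc, had 7832 and 3786 FPKM in TH and 806 to 3689 FPKM elsewhere, and the chaperone CRYAB had 6494 and 4239 FPKM in TH and 717 to 3200 FPKM elsewhere. ANKRD1 had 2935 and 2776 FPKM in TH, within the range of 885 to 3512 FPKM of the other libraries.

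Of these load genes, 2 more were singled out after their values were seen. TNC, a matrix protein of remodelling tissue, had 46.5 and 47.5 FPKM in TH and 0.665 to 11 FPKM elsewhere, with a log2 fold change of 3.24 ± 0.81 (SE; limma adjusted p = 0.161) in TH to YH and 4.58 ± 0.81 (SE; limma adjusted p = 0.173) in TH to TL. CTGF, a secreted growth factor of fibrous tissue, had 192 and 176 FPKM in TH, 81.2 and 151 FPKM in TL and 28.1 to 42.2 FPKM in YH and YL. TNC, like NPPA and NPPB, was far higher in TH than in any other group, whereas CTGF was higher in the Tibetan than in the Yorkshire libraries at both altitudes.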

How the data were processed

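The authors pooled RNA of 4 pigs per library, made TruSeq libraries, sequenced them on an Illumina HiSeq, aligned reads to Sscrofa10.2 with TopHat2 2.0.9 and computed FPKM with Cufflinks; Bowtie 0.12.5 and DESeq 1.10.1 are in the submitters' processing notes. The deposited table gives per library FPKM and a signal, which the authors named a count and which is reads per gene divided by 1 factor of the library. Dividing the signal by its most frequent lowest value gave whole numbers (within 0.05) for 99.8% of values of up to 100 reads, and these reads served for depth, edgeR 4.0.16 and DESeq2 1.42.0. A further 8 columns, the authors' group means and ratios of them, and tables that repeat a group's values were not used. Libraries were grouped by title; the descriptions of YL1 and YL2 point to the TL table, against title and breed, and both were taken as YL. Nothing in the sources used here pairs libraries across groups, and what separates the pools of a group beyond the animals is not given, so p-values measure the spread between pools.

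The deposited table names 14256 genes, and another 1025 were named through a list of gene symbols; where a listed symbol had several genes, that with the highest mean FPKM was taken. A filter kept the 11913 of 18975 genes that reach 1 FPKM in 2 or more libraries, which were tested with limma 3.58.1 (R 4.3.3) on log2(FPKM + 1), with 1 term per group, all 8 libraries and moderated variances with a trend (prior 2.83 and residual 4 degrees of freedom). The pseudocount of 1 understates changes of genes of low level. P-values were adjusted over all genes tested by the Benjamini-Hochberg method, and a call needs a log2 fold change over 1 (either sign) with an adjusted p under 0.01. The scripts were tested on simulated data. Alternatives were a pseudocount of 0.1, no filter, a mean of at least 10 FPKM, median-ratio scaling, scaling to an FPKM sum of 1000000, no trend, a replicate block, only the 4 libraries compared, each library left out, edgeR, DESeq2 and an adjusted p under 0.05. The 8 natriuretic genes, the gene lists and the tests were chosen with earlier results of these data known. Genes are named by rule: all 8 members, in each list at most 4 genes by the highest mean FPKM plus any called, and the 5 genes most correlated with NPPA, NPPB, NPR3 or CORIN; PCSK6, PDE2A, MRVI1, TNC, CTGF, XIRP1, MYL4, MYBPHL, MYH6, MYH11, PTPRC, HBB, HBA and the genes named around NPPA were added after their values were seen, as were PDE3A, TBX5, MEF2C, GATA4 and TBX3 for opposite directions and the pathway genes PRKG1, PRKG2, PDE5A, PDE9A and OSTN for not passing the filter. DESeq2 without YL2 was added after seeing the data. Python 3.11.15 (pandas 2.3.3, numpy 2.4.6, matplotlib 3.10.9) was used for tables and plots.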

Additional observations from a re-analysis of the deposited data

Results flagged for a closer look

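For 10 of the 39 natriuretic and listed genes tested, both libraries of a group differed without overlap in opposite directions, either between altitudes (TH to TL against YH to YL) or between breeds (TH to YH against TL to YL). Among all genes tested this held for 15.5%. The difference of the altitude effects (TH to TL minus YH to YL, log2 scale) was tested with limma, and none of the 10 passed at an adjusted p under 0.01.

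Of the natriuretic genes, 2 were among them. NPPB (8.83, adjusted p = 0.273) was higher in TH than in YH but lower in TL than in YL, and CORIN (-2.81, adjusted p = 0.198) was opposite both between breeds and between altitudes.

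Of the pathway genes, PCSK6 (-2.36, adjusted p = 0.309) and MRVI1 (-2.04, adjusted p = 0.276) were opposite in both respects, and PDE3A (-1.53, adjusted p = 0.444), a phosphodiesterase gene, was lower in TH than in TL but higher in YH than in YL.

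Of the transcription factors, the value was -1.60 for TBX5 (adjusted p = 0.337) and -1.20 for MEF2C (adjusted p = 0.4), and -0.90 for SRF (adjusted p = 0.371), all lower in TH than in TL and higher in YH than in YL. It was -1.16 for GATA4 (adjusted p = 0.536) and -0.73 for TBX3 (adjusted p = 0.502), both lower in TH than in YH but higher in TL than in YL. YL2, which carries kidney genes, is part of each of these values, and without it they kept their sign, at 9.87 for NPPB, -2.41 for CORIN, -2.17 for PCSK6, -1.83 for MRVI1, -0.94 for PDE3A, -1.16 for TBX5, -0.80 for MEF2C, -0.72 for SRF, -0.59 for GATA4 and -0.64 for TBX3.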

How the results depend on the processing

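With each group at 2 pools the tests resolve little. NPPA and NPPB kept their direction in TH to YH, in TH to TL and in the difference of the altitude effects under every alternative run, as did CORIN in all 5 tests where its level passed the filter. A mean of at least 10 FPKM (4270 genes) removed CORIN and the receptor genes. Where a library is left out, its group has 1 library, which is assumed to vary like the others. The cause of the changes below was not tested.

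The replicate numbers did not pair the libraries (correlations of their deviations from -0.084 to 0.118). With the replicate block, limma called 3, 4, 1, 0 and 4 genes in TH to YH, TH to TL, TL to YL, YH to YL and the difference of the altitude effects, against 4, 6, 1, 0 and 4 without it, and NPPA had an adjusted p of 0.0366 and 0.0678 in the first 2. It changed no call of a natriuretic gene.

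In the same order of the 5 tests, scaling to an FPKM sum gave 38, 30, 97, 69 and 40 calls, DESeq2 230, 151, 175, 36 and 75, and edgeR 0 in each. At an unadjusted p under 0.05, edgeR gave 3, 3, 1, 1 and 3 natriuretic genes. An adjusted p under 0.05 gave 31 calls in TH to YH, with 1 natriuretic gene, NPPA (5.53), and 12 in TH to TL. With only the 4 libraries compared, TH to TL had 11 calls and TL to YL 2. A pseudocount of 0.1 gave 1 call in YH to YL.

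Scaling to an FPKM sum called 2 natriuretic genes in TH to YH, NPPA (4.48) and NPPB (5.10), the same 2 in TH to TL (4.17 and 6.71), and 1 in the difference of the altitude effects, NPPB (7.90). DESeq2 called 2 in TH to YH (NPPA 5.32, NPPB 5.11), 2 in TH to TL (4.76 and 7.05), 1 in YH to YL (CORIN) and 3 in the difference of the altitude effects (NPPA 4.25, NPPB 7.69 and CORIN).

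Among the alternatives that leave out no single library, these directions of natriuretic genes turned. In TH to YH, NPR2 was -0.08 with median-ratio scaling, -0.60 with FPKM sum scaling, -0.04 with edgeR and -0.03 with DESeq2. FPKM sum scaling also turned NPR1 (-0.18) and NPR3 (-0.36) in TH to YH, NPR1 (-0.16) in TH to TL, and NPR1 (-0.28) and NPR3 (-0.07) in the difference of the altitude effects. The median of all genes moved under it by -0.47 in TH to YH, -0.25 in TH to TL, -0.24 in TL to YL and -0.26 in the difference of the altitude effects, where relative to that median NPR1 was -0.02 and NPR3 0.20. DESeq2 without YL2, chosen after seeing the data, gave 141 calls in TL to YL, 31 in YH to YL and 109 in the difference of the altitude effects, there with 3 natriuretic genes, NPPA (3.68), NPPB (8.39) and CORIN (-2.66). It turned NPR2 in TL to YL (-0.04), in YH to YL (-0.14) and in the difference of the altitude effects (0.00), and NPR3 in YH to YL (-0.43).

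With a library left out, the calls ranged from 4 to 13 in TH to TL, from 1 to 305 in TL to YL, from 0 to 305 in YH to YL and from 4 to 152 in the difference of the altitude effects, each highest without YL1, and for TH to TL equally without YL2. Natriuretic genes called ranged from 0 to 1 in YH to YL and in the difference of the altitude effects, in both cases CORIN without YL1. The log2 fold change ranged in TH to YH from -0.05 to 0.11 for NPR2 and from -0.43 to 0.16 for FURIN, and in TH to TL from -0.20 to 0.00 for NPR2. In TL to YL it ranged from -0.55 to 0.32 for NPR3. In YH to YL it ranged from -0.50 to 1.47 for NPPA, from -2.98 to 0.42 for NPPB, from 0.00 to 0.29 for NPR1, from -0.10 to 0.57 for NPR2, from -0.11 to 0.77 for NPR3 and from -0.20 to 0.40 for FURIN. In the difference of the altitude effects it ranged from -0.67 to 0.01 for NPR2.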

Other observations

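As a description, the tested genes whose log2(FPKM + 1) followed a natriuretic gene most closely over the 8 libraries were looked up, with no test. For NPPA these included TMEM150A (Pearson r = 0.98), LOXL1 (0.97), RHOA (0.97) and MCM5 (0.97). TMEM150A had 1.24 and 1.01 FPKM in TH and 0.276 to 0.563 FPKM elsewhere. MCM5 had 2.56 and 2.28 FPKM in TH and 0.285 to 0.938 FPKM elsewhere. Both passed the filter only through TH, where NPPA is high, so the filter has a share in their match. LOXL1, an enzyme that cross-links elastic fibres, had 22 and 23 FPKM in TH, 5 and 5.71 FPKM in TL, 3.49 and 4.72 FPKM in YH, and 3.68 and 2.73 FPKM in YL, so that the TH libraries stood apart as for NPPA. RHOA, a small GTPase, had 150 and 149 FPKM in TH and 94.5 to 114 FPKM elsewhere. NPPB was followed by PRSS12, HGH1, SERTAD1 and VPS37C (0.96 each). The natriuretic genes themselves were left out of this search. Among them, NPPA had r = 0.85 with NPR1 and 0.84 with NPPB, and NPPB had 0.75 with NPR3.

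NPR3 was followed most closely by CDV3, STX12 and SLCO3A1 (0.98 each), with SLCO3A1, an organic anion transporter, at 59.6 and 46.3 FPKM in TH and 11.5 to 48 FPKM elsewhere. CORIN was followed by RFX2 (0.99), a transcription factor at 0.12 to 1.8 FPKM, and by C5ORF65 (0.98) and KIAA0226L (0.97). RFX2 passed the filter only through TL and YH, where CORIN is high. All these values share the same 8 libraries, their depth and their groups, and the closest of 11913 genes have high values by selection.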
